A study of Mus musculus with 12 samples.

Results

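The genes described here are 9 transcription factors and cofactors from the networks known to set fiber type in skeletal muscle: the sine oculis-related homeobox genes Six2, Six4 and Six5, their partners Eya1, Eya4 and Dach1, and Sox6, Prox1 and Tbx15. They were chosen by gene symbol from the 23923 genes analysed, with earlier results of these data known. All 9 had a value in every one of the 12 libraries. Each library came from the tibialis anterior, a fast hindlimb muscle, of 1 mouse aged 6 weeks on the strain background C57BL6/J;129S1/SvImJ. The 6 controls were Myf6 cre/+; Smyd1 flox/+ and the 6 Smyd1 CKOs (conditional knockouts) had the genotype Myf6 cre/+; Smyd1 flox/-. The question was which transcripts differ when the muscle methyltransferase SMYD1 is lost from myofibers. Cre was made from the Myf6 locus, which is active in differentiating and mature myofibers, and the study's strategy also included a Rosa26 YFP reporter. The controls therefore also carried Cre and 1 floxed allele, and the null allele of the CKOs was present in every cell and not only in myofibers. RNA was depleted of ribosomal RNA and sequenced. Values are FPKM, the fragments of a gene divided by its transcript length and by the sequencing yield of the library. Within a mouse they can be compared between genes, while a comparison between mice also depends on how the libraries are scaled.

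Sine oculis-related proteins bind MEF3 elements in muscle genes, EYA proteins join them as coactivators, and DACH proteins act with the same complex as corepressors. In adult muscle this network is known for keeping up genes of fast fibers. SOX6, an HMG-box protein, is known as a repressor of slow fiber genes, among them the slow myosin gene Myh7. TBX15, a T-box protein, is enriched in glycolytic fibers, and PROX1, a homeobox protein, is tied to the slow program and also marks lymphatic endothelium.

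None of the 9 genes passed the adjusted threshold between CKOs and controls. In the FPKM as deposited the gene nearest to it was Sox6, whose mean was 12.03 ± 1.24 FPKM in controls and 10.3 ± 1.25 FPKM in CKOs (SD, n = 6 each). Slow myosin Myh7 stood at 7.81 FPKM or more in 3 of the 6 CKOs and at 2.25 FPKM or less in all controls, and no member correlated with Myh7 across the mice past the threshold.

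Before the members are taken in turn, a few facts of the libraries bear on their values. The number of reads is unknown, and relative depth, taken from the spacing of the smallest FPKM, spanned 1.78-fold. Smyd1 itself stood at 37.4 ± 5.64 FPKM in controls and 34.1 ± 4.37 FPKM in CKOs, a log2 fold change of -0.13 (SE 0.12, limma adjusted p = 0.545), with overlapping groups. After median-ratio scaling it was -0.32 (limma adjusted p = 0.0797) and after quantile normalization -0.23 (limma adjusted p = 0.186). One FPKM covers the whole gene, and the extent of the deleted segment is not given in the sources used here, so this value does not check the genotype labels. By western blot, the study reported SMYD1 protein as undetectable in CKO tibialis anterior, without saying whether these mice were used. All 12 libraries held the Y-linked Ddx3y, at 15.8 FPKM or more. Of the mature muscle markers, Ckm, Acta1, Myh4 and Tnnt3 were abundant throughout, while Ttn was listed at 0 in 8 of the 12 libraries, which for a gene that every myofiber uses can be a failed estimate. Control 1 stood apart in markers of other cells, with a summed fibroblast level of 680 FPKM against 177 to 224 FPKM in the other controls and 243 to 404 FPKM in CKOs. Control 1 was also the highest of all libraries in tendon, lymphatic endothelial and macrophage markers. Without control 1, the count of genes past the adjusted threshold over the whole table went from 291 to 1144. Summed adipocyte markers ran from 0.698 to 2.38 FPKM in controls and from 1.89 to 6.46 FPKM in CKOs, and satellite cell markers from 1.31 to 1.97 FPKM and from 1.93 to 3.02 FPKM. Endothelial, smooth muscle and Schwann cell markers overlapped widely between the groups. Fewer cells of a type and less RNA per cell cannot be told apart in whole muscle.

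Taken by level, the members spanned more than 2 orders of magnitude. Averaged over the 12 mice, Tbx15 was highest at 44.8 FPKM, above 97.8% of the 12695 genes tested, followed by Sox6 at 11.2 FPKM, Eya4 at 7.10 FPKM, Six4 at 3.74 FPKM and Eya1 at 2.80 FPKM. Dach1 at 0.689 FPKM, Prox1 at 0.381 FPKM, Six5 at 0.186 FPKM and Six2 at 0.130 FPKM followed, the last above only 2.47% of the genes tested. Tbx15, Sox6, Eya4, Eya1 and Dach1 each lay above the next gene in that order in all 12 mice. Six4 exceeded Eya1 in 11 of 12 mice and Prox1 exceeded Six5 in 11 of 12. Six5 exceeded Six2 in 9 of 12, so these 2 neighbours were the least well separated. The coefficient of variation over the mice was lowest for Sox6, at 13.3%, and highest for Six2, at 74.3%.

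**Figure D1:**
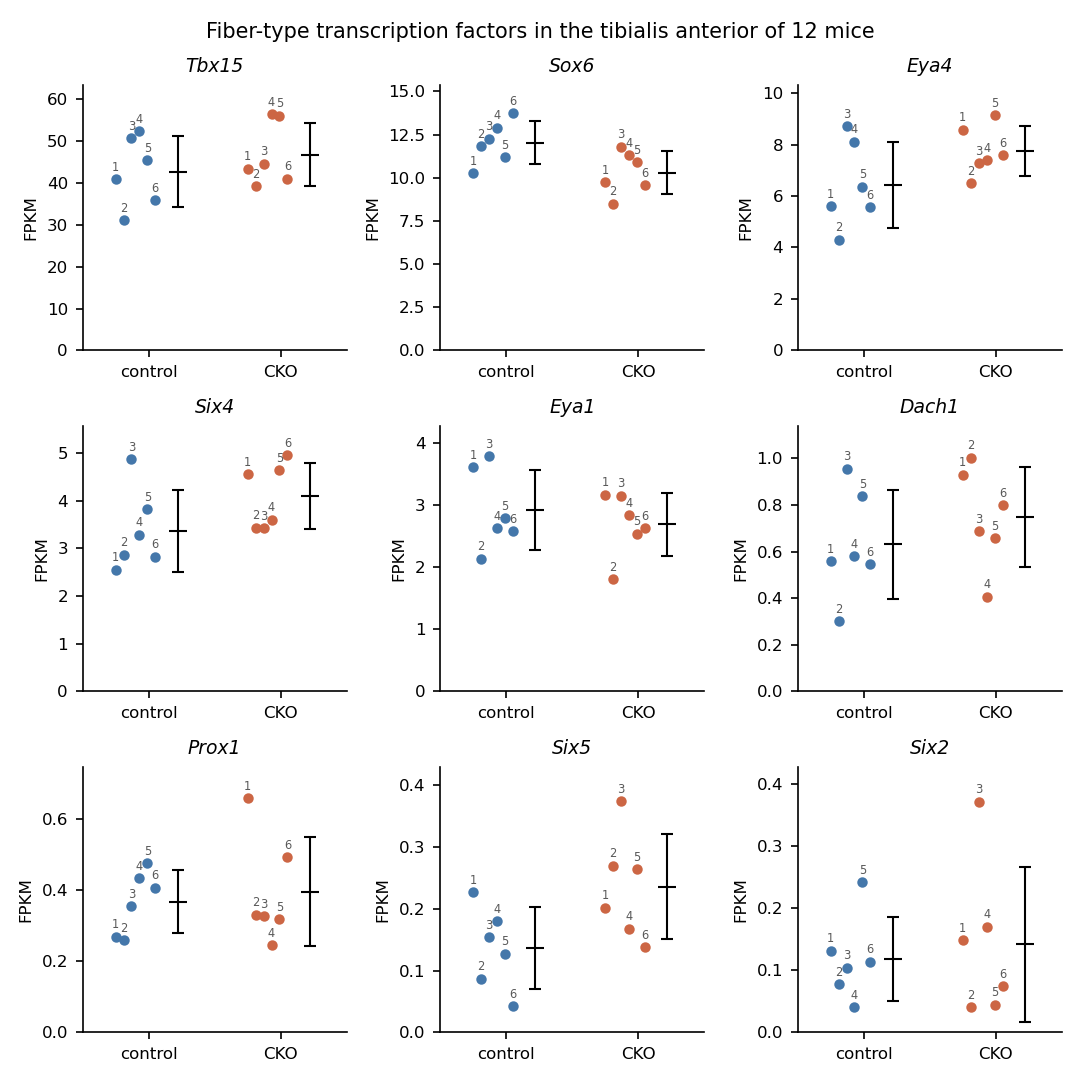
FPKM (vertical axes, starting at 0) of the 9 members in 6 control mice (blue) and 6 Smyd1 CKO mice (orange), with each mouse marked by its replicate number and the mean ± SD of the group beside the points. The groups overlap in every panel, and the downward displacement of CKOs is clearest for Sox6, where CKO 2 at 8.49 FPKM is the lowest mouse and control 6 at 13.7 FPKM the highest.

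Sox6 had the smallest limma p of the members with the FPKM as deposited. Sox6 was measured at 10.2, 11.8, 12.3, 12.9, 11.2 and 13.7 FPKM in controls 1 to 6. In CKOs 1 to 6 it was measured at 9.75, 8.49, 11.8, 11.3, 10.9 and 9.56 FPKM. Control 1 was the lowest control, and CKOs 3, 4 and 5 lay within the control range while CKOs 1, 2 and 6 lay below it. The log2 fold change was -0.22 (SE 0.11, 95% interval -0.45 to 0.00), with an unadjusted limma p of 0.0496 and an adjusted p of 0.251. An unadjusted p under 0.05 with a lower level in CKOs was given by 1.76% of the genes tested, and in either direction by 19.9%. With each mouse left out in turn, the log2 fold change of Sox6 ran from -0.27 without control 1 to -0.17 without CKO 2, with a limma adjusted p between 0.101 and 0.412. Another member had the smallest p in some of these fits: Six4 without control 3, Eya4 without control 4 or CKO 2, and Six5 without CKO 1, without CKO 6 or with no intensity trend.

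The direction of change in the whole table has to be set beside these values. Over all 12695 genes tested, the median log2 fold change was 0.18, and 77.9% of genes had a positive one. Median-ratio scaling, which divides each library by the median of its ratios to the geometric mean library, brought that median to 0.01. On this scale the Sox6 log2 fold change was -0.41 (limma adjusted p = 0.126) with an unadjusted p under 0.05, and Eya1 also had an unadjusted p under 0.05. Both were lower in CKOs, where 7.44% of all genes were lower by that rule, 6.62% higher and 14.1% either. No member passed the adjusted threshold after scaling, when 1.47% of all genes did.

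Stretches of the Sox6 promoters that match the letters of elements known for factors of this network are shown here. They were chosen because SOX6 and the Six-gene products are themselves the factors under study, and binding was not measured. The RefSeq promoter table for GRCm38.p6, with windows from 250 bases before to 50 bases after each gene's start, held 7 of the 9 members in 15 windows. Eya1 and Tbx15 had no entry. The search used both strands for the MEF3 element TCAGGTTTC, its shorter form TCAGGTT, the SOX-type word AACAAAG and the E-box CANNTG, to which the MyoD family binds. Capitals mark the matched letters.
Sox6, chr7:115824902-115824928, minus strand, short MEF3 form, 208 bases before a start: tcacaaaaatTCAGGTTccatagacag
Sox6, chr7:116038842-116038868, minus strand, SOX word, 114 bases before a start: ttttttcaggAACAAAGggaatgtgga
Sox6, chr7:115995212-115995238, minus strand, SOX word in reverse, 142 bases before a start: ccaagccggcCTTTGTTagtcattgtg
Sox6, chr7:115846169-115846195, minus strand, SOX word, 45 bases before a start: gaatgtgcaaAACAAAGataaaagcta
The SOX word was present in 5.85% of all 32851 promoter windows and in 4 of the 15 member windows, 3 of them those of Sox6. Sox6 had more of the 15 windows than any other member, and the SOX word was found in 2 of the 7 members. The short MEF3 form was present in 4.07% of all windows and in 2 member windows. The E-box was present in 72.3% of all windows and in 9 of the 15, which came from 3 of the 7 members. These matches are a description of the letters only.

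Tbx15, the most abundant member, ran from 31.2 to 52.4 FPKM in controls, with a median of 43.2 FPKM. In CKOs it ran from 39.2 to 56.5 FPKM, with a median of 44.1 FPKM. The CKO range lay mostly inside the control range, with CKOs 4 and 5 above every control and controls 2 and 6 below every CKO. The difference in Tbx15 was a log2 fold change of 0.14 (SE 0.14, 95% interval -0.16 to 0.44, limma adjusted p = 0.595), and it was -0.05 after median-ratio scaling, so no direction can be given.

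Among the homeobox genes of the network, Six4 was the only member above 1 FPKM. SIX4 is known to act on muscle genes through MEF3 elements. Six4 was measured at 2.56, 2.87, 4.87, 3.29, 3.82 and 2.82 FPKM in controls 1 to 6 and at 4.55, 3.44, 3.42, 3.61, 4.64 and 4.95 FPKM in CKOs 1 to 6. Only CKO 6 exceeded the highest control, control 3, while controls 1, 2, 4 and 6 lay below all CKOs. Six4 had a log2 fold change of 0.29 (SE 0.16, 95% interval -0.05 to 0.63, limma adjusted p = 0.315) and 0.11 after median-ratio scaling. The Six4 promoter was the only member window with the full MEF3 element, which was found in 0.429% of all windows; it lies in the reverse direction, 99 bases before the start.
Six4, chr12:73113326-73113354, minus strand: tggcctggggGAAACCTGAtcggccagat

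Six5, which lies beside the myotonic dystrophy kinase gene Dmpk on chromosome 7, was low in all mice. It ran from 0.0421 to 0.227 FPKM in controls, with a median of 0.141 FPKM. In CKOs it ran from 0.137 to 0.374 FPKM, with a median of 0.233 FPKM. CKOs 2, 3 and 5 lay above every control, and the other CKOs lay within the control range. The log2 fold change of 0.52 (SE 0.25, 95% interval -0.02 to 1.057, limma adjusted p = 0.263) was the largest among the members in size on this scale. It was 0.41 after median-ratio scaling and 0.33 after quantile normalization, the latter smaller in size than that of Sox6. With a pseudocount of 1 it was 0.12, below those of Eya4, Six4, Sox6 and Tbx15 in size. With the smallest step between values read as 1 fragment, they correspond to 2 to 7 fragments in each control and 5 to 15 in each CKO, or 29 against 56 fragments over the groups, with no multiple further than 0.0827 from a whole number. Dmpk, on the same strand as Six5, went from 19.7 ± 1.84 to 26.5 ± 2.66 FPKM without overlap between the groups, and Six5 amounted to 0.19% to 1.49% of its level in the same mouse. The part of Dmpk reads in the Six5 value was not tested. A SOX word lies 117 bases before a Six5 start.
Six5, chr7:19094417-19094443, plus strand: acggagggaaAACAAAGaatcctgaca

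Six2, best known from kidney and connective tissue development, was at the edge of detection. It ran from 0.0405 to 0.242 FPKM in controls, with a median of 0.109 FPKM, and from 0.0406 to 0.371 FPKM in CKOs, with a median of 0.112 FPKM. These values stand for 1 to 7 fragments in each control and 1 to 11 in each CKO, 20 and 27 in all. Its log2 fold change was 0.06 with an interval from -0.62 to 0.74 (limma adjusted p = 0.932), and it turned negative under median-ratio scaling, at -0.03.

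Eya4 and Eya1, the coactivators, lay on opposite sides of the zero line. Eya4 was measured at 5.60, 4.30, 8.71, 8.11, 6.37 and 5.57 FPKM in controls 1 to 6. In CKOs 1 to 6 it was 8.58, 6.49, 7.27, 7.40, 9.15 and 7.59 FPKM. CKO 5 was the highest mouse, and 4 of the 6 controls lay below every CKO, while controls 3 and 4 lay near the top. For Eya4 the log2 fold change was 0.29 (SE 0.16, 95% interval -0.04 to 0.63, limma adjusted p = 0.306) and 0.11 after median-ratio scaling.

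Eya1 was measured at 3.61, 2.13, 3.79, 2.62, 2.79 and 2.57 FPKM in controls 1 to 6 and at 3.16, 1.80, 3.15, 2.83, 2.54 and 2.62 FPKM in CKOs 1 to 6. CKO 2 was the lowest mouse and controls 3 and 1 the highest, with the remaining mice intermixed. For Eya1 the log2 fold change was -0.11 (SE 0.16, 95% interval -0.46 to 0.24, limma adjusted p = 0.725). After median-ratio scaling it was -0.29 (limma adjusted p = 0.334). Without control 1 it was -0.05 as deposited, close to no difference.

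Dach1, the corepressor of the complex, ran from 0.303 to 0.956 FPKM in controls, with a median of 0.570 FPKM. In CKOs it ran from 0.407 to 1.002 FPKM, with a median of 0.743 FPKM. The groups overlapped across most of their ranges, and the log2 fold change was 0.24 with an interval from -0.28 to 0.76 (limma adjusted p = 0.604). It was 0.08 after median-ratio scaling, and 0.08 without control 2, the lowest mouse.

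Prox1 ran from 0.259 to 0.475 FPKM in controls, with a median of 0.381 FPKM, and from 0.246 to 0.658 FPKM in CKOs, with a median of 0.329 FPKM. CKOs 1 and 6, at 0.658 and 0.493 FPKM, were the highest mice, and the other CKOs lay within or below the control range. Prox1 had a log2 fold change of 0.06 with an interval from -0.41 to 0.53 (limma adjusted p = 0.905), it was -0.09 after median-ratio scaling, and without control 1 it was -0.004. Markers of lymphatic endothelium, which also expresses Prox1, summed to 2.22 to 8.05 FPKM in controls and 2.69 to 6.22 FPKM in CKOs, with Ccl21a at 0 in every library. Their highest values were in control 1, where Prox1 was 0.2685 FPKM, and in CKO 1, where it was 0.658 FPKM. The part of these cells in the Prox1 level was not tested.

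Counted together, 0 of the 9 members passed the adjusted threshold, against 2.29% of all genes tested (2.02% higher and 0.268% lower). At an unadjusted limma p under 0.05, 0 members were higher, where 18.1% of all genes were. By the same rule 1 was lower, Sox6, where 1.76% of all genes were. The values of controls and CKOs overlapped for all 9, while 2.42% of all genes had groups without overlap. A positive log2 fold change was seen for 7 of the 9, with a median of 0.14, which lies near the 77.9% and the median of 0.18 of the whole table. After median-ratio scaling 4 of the 9 were positive, with a median of -0.03, against 51.2% and 0.01 in the whole table. The 95% intervals of Six4, Eya4, Eya1, Sox6 and Tbx15 all ended at most 0.63 from zero on the log2 scale, and those of the 4 members below 1 FPKM reached from 0.53 to 1.057 above zero. A p that misses the threshold does not show that the levels were alike.

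**Figure D2:**
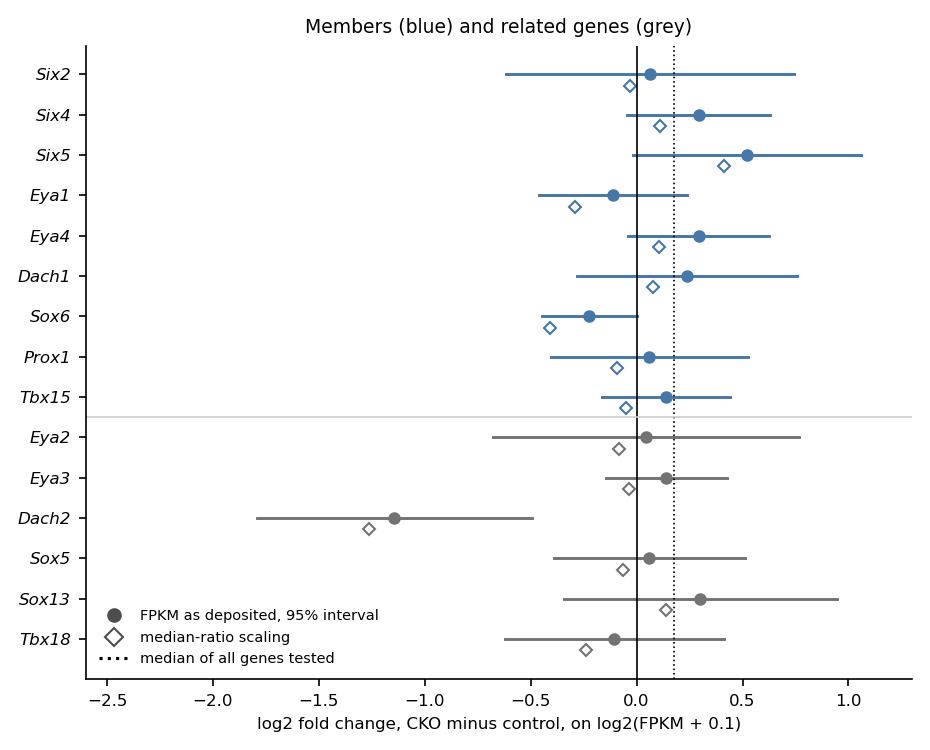
Log2 fold changes of CKOs over controls on log2(FPKM + 0.1) for the 9 members (blue) and 6 related genes (grey), with filled points and 95% intervals for FPKM as deposited and open diamonds after median-ratio scaling. The dotted line marks the median of all genes tested, 0.18. Sox6 at -0.22 and Eya1 at -0.11 are the 2 members left of zero, and Dach2, at -1.14, is the gene farthest from zero.

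A ratio of 2 members within a mouse does not depend on how its library was scaled, so the 5 members with a mean above 1 FPKM were also compared with each other in each mouse. These 10 pairs were formed after the values had been seen and share members. Sox6 relative to Eya4 was 1.83, 2.75, 1.41, 1.59, 1.76 and 2.47 in controls 1 to 6. In CKOs 1 to 6 it was 1.14, 1.31, 1.62, 1.53, 1.19 and 1.26. CKOs 1, 2, 5 and 6 lay below every control, and CKOs 3 and 4 overlapped with the lower controls.

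The mean ratio of Sox6 to Eya4 was 1.97 ± 0.526 in controls and 1.34 ± 0.194 in CKOs (SD, n = 6 each; log2 difference -0.52, two-sided exact permutation test, p = 0.0130, adjusted p = 0.0866). Sox6 relative to Six4 went from 3.73 ± 0.857 to 2.58 ± 0.591 in the means (log2 difference -0.53, exact p = 0.0281). Tbx15 relative to Sox6 went from 3.58 ± 0.748 to 4.55 ± 0.497 (log2 difference 0.37, exact p = 0.0238). Eya4 relative to Eya1 went from 2.24 ± 0.503 to 2.96 ± 0.536 (log2 difference 0.41, exact p = 0.0346).

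These 4 pairs had an unadjusted exact p under 0.05, 3 of them with Sox6 on the side that was lower in CKOs, but all 4 had an adjusted p of 0.0866 over the 10 pairs and 0 passed the threshold. Eya4 relative to Six4 was 1.93 ± 0.355 in controls and 1.91 ± 0.207 in CKOs (log2 difference -0.004, exact p = 0.981), the smallest difference of any pair. The count past the adjusted threshold was 1 without control 4 (Eya4 to Eya1) and 5 without CKO 3, where Six4 to Eya1 joined the 4 pairs above. Without control 1 it stayed at 0.

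**Figure D3:**
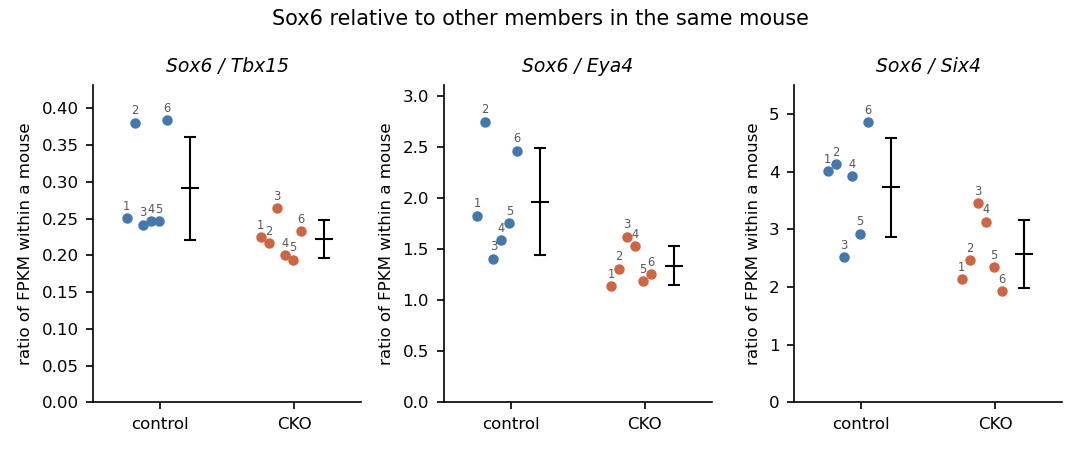
Ratio of the FPKM of Sox6 to that of Tbx15, Eya4 and Six4 in the same mouse (vertical axes, starting at 0) for 6 controls (blue) and 6 CKOs (orange), numbered by replicate, with mean ± SD. CKOs 1, 2, 5 and 6 are below all controls for Sox6 to Eya4, whose means were 1.97 and 1.34, and CKO 3 is the highest CKO in each panel.

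The relation to slow myosin was the second question. Myh7, the myosin heavy chain of slow fibers, was measured at 1.22, 0.218, 0.279, 2.25, 0.204 and 0.595 FPKM in controls 1 to 6. In CKOs 1 to 6 it was 16.5, 0.438, 7.81, 2.51, 0.419 and 37.5 FPKM. CKOs 1, 3, 4 and 6 lay above every control, CKO 4 only just, while CKOs 2 and 5 lay within the control range. The log2 fold change of Myh7 was 2.58 (SE 0.95, limma adjusted p = 0.155).

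Across the 12 mice on the log2(FPKM + 0.1) scale, no member correlated with Myh7 at an adjusted or unadjusted p under 0.05. Prox1 had the highest coefficient (Pearson r = 0.468, permutation p = 0.124, adjusted over the 9 members p = 0.632; Spearman rho = 0.266, permutation p = 0.402). Sox6, the known repressor of Myh7, had the only negative one (r = -0.296, permutation p = 0.349, adjusted p = 0.632; rho = -0.280, permutation p = 0.377). In the mice themselves, CKO 2 had the lowest Sox6 of all, 8.49 FPKM, with Myh7 at 0.438 FPKM, and CKO 3 had 11.8 FPKM of Sox6 and 7.81 FPKM of Myh7. The next lowest in Sox6, CKO 6 at 9.56 FPKM and CKO 1 at 9.75 FPKM, had the highest Myh7 of all mice, at 37.5 and 16.5 FPKM.

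The other members gave r = 0.381 for Eya4 (permutation p = 0.223), 0.326 for Six4 (permutation p = 0.301), 0.268 for Six5 (permutation p = 0.396) and 0.234 for Eya1 (permutation p = 0.467). Six2 gave r = 0.210, Dach1 0.186 and Tbx15 0.093, with permutation p of 0.515, 0.562 and 0.774, and Spearman rho of these 7 lay between 0.007 and 0.315 (lowest permutation p = 0.318). The lowest adjusted p was 0.632 for r and 0.731 for rho.

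The mice farthest from the median of Myh7 were CKO 6 and CKO 1. Without them r turned to -0.185 for Prox1, -0.229 for Six4, -0.164 for Dach1 and 0.149 for Sox6, so the sign of these 4 coefficients rested on 2 mice. Within the 6 controls, r was 0.095 for Sox6 (exact permutation p = 0.876) and within the 6 CKOs it was 0.074 (exact permutation p = 0.875). The highest value within the CKOs was that of Prox1, r = 0.662 (exact permutation p = 0.146), followed by Eya1 at r = 0.637 (exact permutation p = 0.157). Within the controls the largest in size was Six2, at r = -0.550 (exact permutation p = 0.269). After each group was centred on its mean, Sox6 gave r = 0.077 (permutation p = 0.836) and Prox1 r = 0.509 (permutation p = 0.160).

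**Figure D4:**
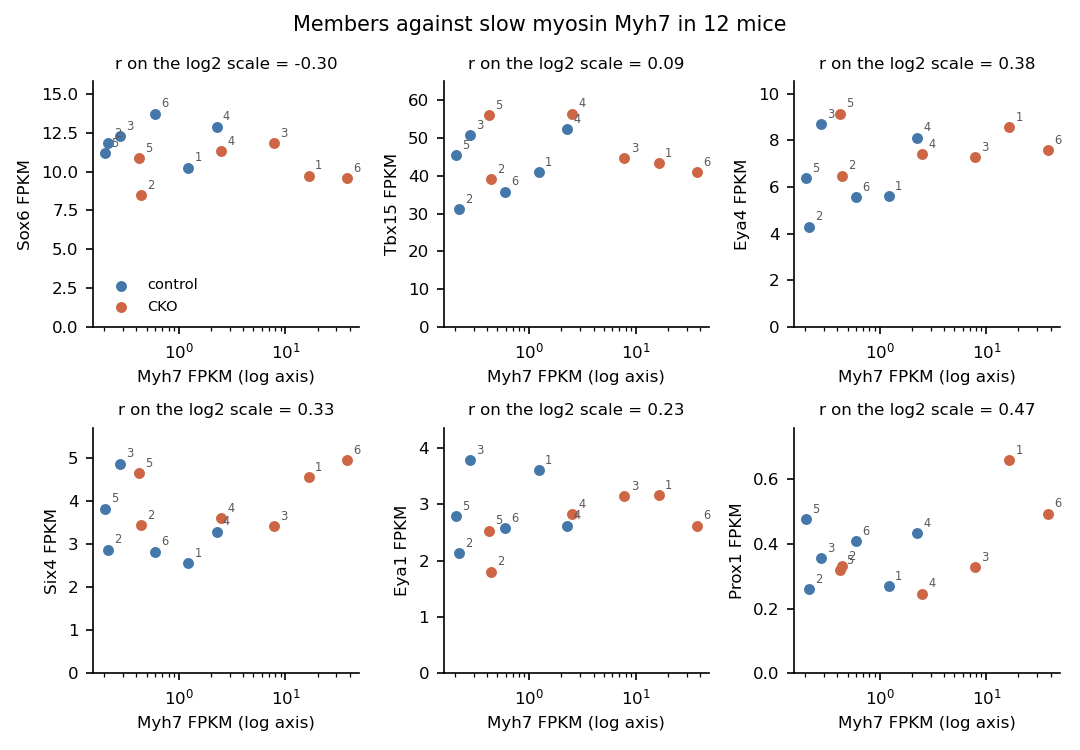
FPKM of 6 members (vertical axes, starting at 0) against FPKM of Myh7 (horizontal log axes) in 6 controls (blue) and 6 CKOs (orange), numbered by replicate, with Pearson r over the 12 mice on the log2(FPKM + 0.1) scale above each panel. Sox6 lies between 8.49 and 9.75 FPKM in CKOs 1, 2 and 6, in which Myh7 ran from 0.438 to 37.5 FPKM, and r runs from -0.30 for Sox6 to 0.47 for Prox1.

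Members also varied with one another. Of the 36 pairs of members over the 12 mice, the highest Pearson r after median-ratio scaling was that of Eya4 with Tbx15, at 0.751, followed by Six4 with Eya4, at 0.716, and Dach1 with Prox1, at 0.559. The lowest was Six5 with Sox6, at -0.534. As deposited, these were 0.824, 0.789, 0.612 and -0.472. All pairs share the same 12 libraries, and the values are a description.

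Likeness to other genes was measured for the 5 members above 1 FPKM as Pearson r over the 12 mice after median-ratio scaling, against the 7969 tested genes with a mean of at least 1 FPKM. Nearest to Sox6 were Satb1 (0.957), a chromatin organizer, Mtss1l (0.943) and Camk2a (0.941), a calcium-dependent kinase. Nearest to Tbx15 were Sun2 (0.941), a protein of the nuclear envelope, Tecpr2 (0.908) and Ttll4 (0.903). Six4 was most like Bmp2k (0.964), Phf20 (0.905) and Uhmk1 (0.877). Eya4 was most like E130311K13Rik (0.947), Heatr1 (0.907) and Irs1 (0.901), an adaptor of the insulin receptor. Eya1 was most like Ormdl1 (0.939), BC003331 (0.894) and Gtpbp4 (0.882). With 12 mice and this many genes, high coefficients arise for any gene, and these are given as a ranking only.

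Close relatives of the members were examined next. Of 5 further genes of the same 3 families, 3 could be tested, since Six3 was listed at 0 in every library and Six6 was below the filter. Eya3 was 1.29 ± 0.218 and 1.42 ± 0.1001 FPKM (log2 fold change 0.14, limma adjusted p = 0.573), and Eya2 0.312 ± 0.229 and 0.306 ± 0.157 FPKM (log2 fold change 0.04).

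Dach2, a corepressor that in muscle is known to respond to nerve activity, was lower in CKOs at the unadjusted threshold. Dach2 was measured at 0.327, 0.290, 0.775, 0.224, 0.658 and 0.432 FPKM in controls 1 to 6 and at 0.201, 0.139, 0.0997, 0.127, 0.297 and 0.0271 FPKM in CKOs 1 to 6. Every CKO but CKO 5 lay below every control. The log2 fold change was -1.14 (SE 0.31, limma adjusted p = 0.0639) as deposited and -1.26 (limma adjusted p = 0.0496) after median-ratio scaling. Dach2 also passed with quantile normalization (limma adjusted p = 0.0444) and sample weights (limma adjusted p = 0.0167). It did not pass with no filter, no intensity trend or the replicate block. With a pseudocount of 1 the fold change was -0.33 (limma adjusted p = 0.0733), and with Myh7 as a covariate -0.70 (limma adjusted p = 0.465). The CKO mean of 0.148 FPKM was near that of Six2, 0.142 FPKM, and the fragments behind it were not counted. Without control 1, where 1144 of 12560 genes passed, the limma adjusted p of Dach2 was 0.0353. Over the mice left out in turn it ran from 0.0330 to 0.140. The difference between Dach1 and Dach2 in their response was not tested.

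Relatives of Sox6, Prox1 and Tbx15 showed no call. Of 4 such genes 3 were tested, and none of Sox13 (log2 fold change 0.30), Sox5 (0.06) and Tbx18 (-0.10) had an unadjusted limma p under 0.05. Prox2 was below the filter.

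Of 15 other regulators of fiber type, 0 passed the adjusted threshold and 3 were higher at an unadjusted limma p under 0.05, a share near the 18.1% of all genes higher by that rule. Mef2c, an activator of the slow program, went from 73.2 ± 7.15 to 104 ± 22.6 FPKM (log2 fold change 0.48, limma adjusted p = 0.0830). The histone deacetylase genes Hdac5 (log2 fold change 0.39, adjusted p = 0.0830) and Hdac4 (0.37, adjusted p = 0.197), whose products repress MEF2 proteins, were also higher at that threshold. After median-ratio scaling Mef2c alone was higher by that rule, and Tead1 and Ppargc1a were lower, where 6.62% and 7.44% of all genes were. As deposited, Ppargc1a stood at 28.9 FPKM in control 6 and at 10.7 FPKM or less in every other control. In CKOs it ran from 6.82 to 9.07 FPKM. Without control 1, Tead1 passed the adjusted threshold at a log2 fold change of -0.49 (limma adjusted p = 0.0299), and without CKO 2 Mef2c did, at 0.57 (limma adjusted p = 0.0276). Over all genes, 1144 of 12560 passed without control 1 and 329 of 12580 without CKO 2.

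Slow and fast fiber genes, on which these factors are known to act, give the setting of the values above. Of 8 slow fiber genes, 7 were higher in CKOs at an unadjusted limma p under 0.05 and 1, Myh7b, also past the adjusted threshold, and the median log2 fold change of the list was 1.78 beside 0.18 for all genes. Of all genes, 18.1% and 2.02% were higher by these rules. After median-ratio scaling 6 of the 8 were higher and 1, Myl3, lower at an unadjusted p under 0.05. Myh7b, a relative of Myh7, went from 0.175 ± 0.0551 to 0.438 ± 0.161 FPKM without overlap (log2 fold change 0.94, limma adjusted p = 0.0470). After median-ratio scaling the adjusted p of Myh7b was 0.113, and with libraries left out in turn it passed only without control 1, CKO 2 or CKO 5. The slow troponin gene Tnni1 had a log2 fold change of 2.41, Tnnc1 of 1.99, Tnnt1 of 1.57, the slow light chain gene Myl2 of 2.06 and the slow calcium pump gene Atp2a2 of 0.87, each with an unadjusted p under 0.05 and an adjusted p between 0.109 and 0.204. In Tnni1, Tnnc1, Tnnt1 and Myl2 the values of CKOs 1, 3 and 6 lay above all other mice, and the remaining CKOs overlapped with controls, except CKO 4 in Tnni1. Tnni1 in CKO 5, at 0.0906 FPKM, was below every control. Without CKO 5, Tnni1 passed the adjusted threshold (limma adjusted p = 0.0144). Myl3 was the exception, at -0.52 (limma adjusted p = 0.330).

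Of 13 fast fiber genes, 3 were higher at the unadjusted threshold and 0 lower, where 18.1% and 1.76% of all genes were, so that the share of higher genes was near that of the table. Myh1, the myosin of type IIx fibers, rose from 975 ± 91.0 to 2082 ± 573 FPKM without overlap (log2 fold change 1.05, limma adjusted p = 0.00734), Myh4 had a log2 fold change of 0.77 (adjusted p = 0.0599) and Myh2 one of 1.18 (adjusted p = 0.107). Myh4 passed the adjusted threshold with sample weights, a filter at 1 FPKM or a pseudocount of 1, and without control 1, CKO 2 or CKO 5, and Myh2 passed with sample weights and without CKO 5. Reads shared by myosin paralogs were discarded before the FPKM were made, which leaves these levels uncertain. By real-time PCR normalized to Gapdh, a different measure, the study reported higher Myh1, Myh2, Myh4 and Myh7 mRNA in CKO tibialis anterior. In the same muscle it reported that the share of type I fibers did not differ significantly. Slow myosin protein was virtually absent there by western blot. Myh1 passed in every alternative fit except the one with Myh7 as a covariate. After median-ratio scaling the same rule gave 3 higher and 6 lower, the latter Tnni2, Tnnc2, Tnnt3, Actn3, Pvalb and Aldoa, where 6.62% and 7.44% of all genes were higher and lower. With the Myh7 level of each mouse as a covariate in the fit, 0 members had an unadjusted limma p under 0.05. Of all genes, 1353 of 12694 did, and 6 passed the adjusted threshold. The log2 fold change of Sox6 in that fit was -0.24 with an SE of 0.13, against -0.22 with an SE of 0.11 without the covariate.

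**Figure D5:**
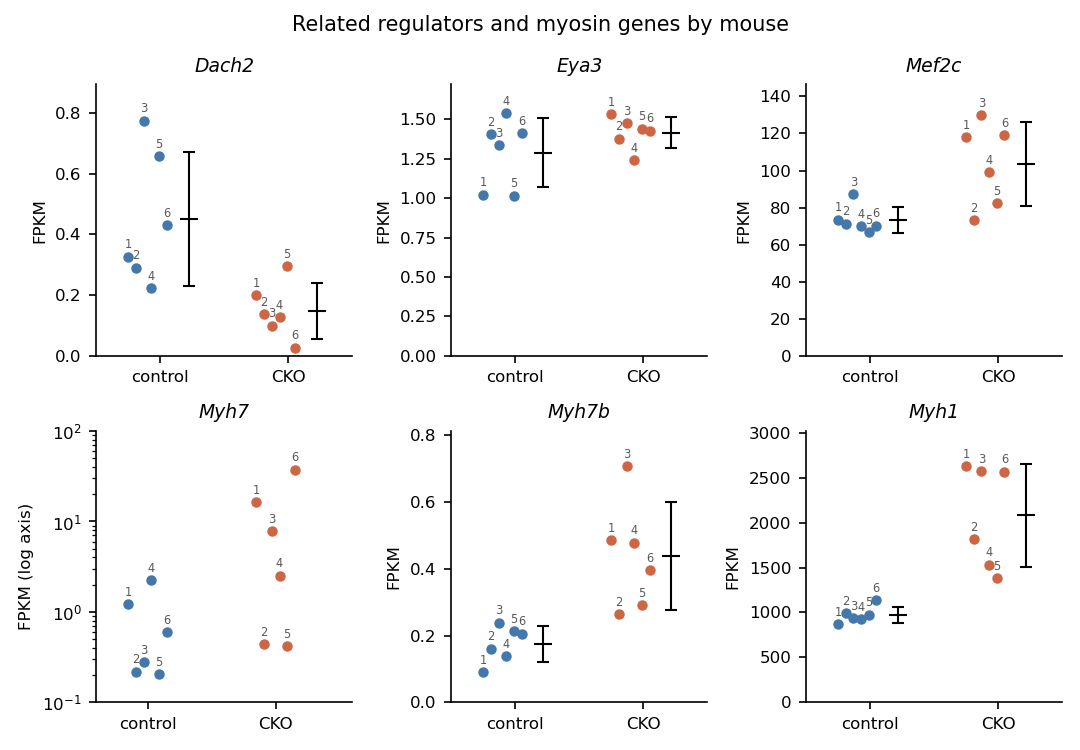
FPKM by mouse of Dach2, Eya3, Mef2c, Myh7, Myh7b and Myh1 in 6 controls (blue) and 6 CKOs (orange), numbered by replicate, with mean ± SD except for Myh7, which is drawn on a log axis. All CKOs are above all controls for Myh7b and Myh1, 5 of 6 CKOs are below all controls for Dach2, and Eya3 is intermixed, at 1.015 to 1.54 FPKM in controls and 1.24 to 1.53 FPKM in CKOs.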

How the data were processed

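RNA of the tibialis anterior from 6 controls and 6 Smyd1 CKOs was sequenced after ribosomal depletion, with 1 library per mouse. The authors trimmed adapters, aligned reads with bowtie2 and TopHat2 2.0.10 to mm9 with at most 2 mismatches, discarded reads mapping to several places, and deposited FPKM from Cufflinks 2.1.1. The annotation and the use of strand are not given in the sources used here. Reads of Sox6, Prox1, Tbx15, Eya1, Dach1, Dach2 or Myh7 therefore cannot be told apart from those of opposite-strand genes overlapping them. Myh7 has 4 such genes. The authors tested counts with DESeq; counts are not used here. Of 23950 rows per file, 27 with a date for a symbol were left out.

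Groups follow the labels. FPKM as deposited were compared with limma 3.58.1 (intensity trend, no block) in R 4.3.3 on log2(FPKM + 0.1), where fold changes of low genes are understated, for the 12695 genes that reached 0.1 FPKM in 6 or more libraries, with Benjamini-Hochberg adjustment over all of them and a threshold of 0.05. All 9 members passed the filter. Correlations used 100000 permutations (12 mice) or all 720 pairings (6 mice), ratios all 924 assignments (scipy 1.17.1). The read depth is unknown, so no counting interval is given. The code was tested on simulated data.

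Members and lists were chosen with earlier results of these data known. Named are all members and, from each list, genes past either threshold or, if under 3, the smallest p up to 3, with the genes that median-ratio scaling or a left-out library brought past a threshold. Dmpk and Eya2 were named after their values were seen. Ratios within a mouse were added after seeing the data. Of 4 ratios looked at first, 2 used a gene that is not reported here, and all 10 member pairs then took their place. As alternatives, the pseudocount was set to 1, the filter was raised to 1 FPKM or dropped, and libraries were scaled by median ratios or quantile normalized; the others were no trend, sample weights, the replicate number as a block, Myh7 as a covariate, and each library left out. Promoter windows came from RefSeq (GRCm38.p6) and gene overlaps from GENCODE on GRCm38, and no coordinates were carried to or from mm9.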

Additional observations from a re-analysis of the deposited data

How the results depend on the processing

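The count of members past the adjusted threshold was 0 under every alternative run, while the count over all genes ran from 6 (Myh7 as a covariate) to 1515 (sample weights). At an unadjusted p the member count of 1 became 0 with a pseudocount of 1, a filter at 1 FPKM, the replicate block or Myh7 as a covariate, and 2 with no filter, median-ratio scaling, quantile normalization or sample weights; it ran from 0 to 2 over the libraries left out. Under the 4 alternatives named first, the fold change of Sox6 stayed between -0.24 and -0.21. The gene behind the count also changed: with no intensity trend it was Six5 in place of Sox6, and without control 3 it was Six4 and Eya4. Over all genes, 2524 of 12695 had an unadjusted p under 0.05 in the main fit. The count was 2839 of 17922 with no filter, and of 12695 it was 1785 with median-ratio scaling, 1647 with quantile normalization and 4022 with sample weights. Under the 4 alternatives named first it was 2522 of 12695, 1851 of 7938, 2692 of 12695 and 1353 of 12694. Over the libraries left out it ran from 1925 to 3641. The filter at 1 FPKM left no value for Six2, Six5, Dach1 and Prox1. Of 185 alternative fold changes of members 13 reversed. For Six2 these were -0.0318 (median-ratio), -0.0965 (quantile), -0.091 (Myh7 covariate) and, with libraries left out, values from -0.158 to 0.203. For Prox1 they were -0.0922, -0.15 and -0.171 in the same order, and -0.0735 to 0.153. For Tbx15 it was -0.0481 (median-ratio). Of 153 correlations with Myh7, 15 reversed: with quantile normalization Six2 -0.028, Eya1 -0.055, Dach1 -0.048 and Tbx15 -0.030; with median-ratio scaling Eya1 -0.060 and Tbx15 -0.246; without CKOs 1 and 6 Six4 -0.229, Dach1 -0.164, Sox6 0.149 and Prox1 -0.185; centred on group means Six5 -0.100, Sox6 0.077 and Tbx15 -0.087; with libraries left out Dach1 ran from -0.023 to 0.312 and Tbx15 from -0.130 to 0.218. Leaving out 1 library gave 0 or 1 correlation with an unadjusted p under 0.05. No correlation passed the adjusted threshold. The cause of these changes was not tested.

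Related regulators past the adjusted threshold went from 0 to 1 (median-ratio or quantile, Dach2) and 4 (sample weights: Dach2, Hdac5, Mef2c and Tead1), and from 0 to 2 over libraries left out. Slow and fast fiber genes went from 2 to 1 (no filter, median-ratio, quantile or replicate block, Myh1 in each), 9 (sample weights) and 0 (Myh7 as a covariate), and from 1 to 5 over libraries left out. At an unadjusted p this last list went from 10 to 16 (median-ratio) and 4 (Myh7 as a covariate). Member ratios past the adjusted threshold ran from 0 to 5, and unadjusted from 2 to 5.

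The labels number the mice 1 to 6 in both groups without giving a pairing. Same-numbered mice correlated in their deviations at -0.086 to 0.164, with 2 of 6 pairs over 0.1. Their mean was 0.040, against -0.009 for mice of different numbers, and 5 of 12 mice were most like their own number. These values do not settle whether the numbers pair the mice. Because no pairing is stated, the main fit had no block. With the replicate block, 312 genes passed the adjusted threshold in place of 291. Among the members, depth limits Six2 and Six5 most, since they rest on a few fragments per mouse.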
